A study of Mus musculus with 9 samples.

Results

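The genes described here encode the core of antigen presentation by the major histocompatibility complex (MHC): for class I, the heavy chains H2.K1 and H2.D1, the light chain B2m, the peptide transporter subunit Tap1 and the transactivator Nlrc5, and for class II, the chains H2.Aa, H2.Ab1 and H2.Eb1, the invariant chain Cd74 and the transactivator Ciita. They were taken by symbol, with the hyphen of the gene name written as a dot in the deposited tables, and all 10 were present among the 15779 genes measured. Messenger RNA was sequenced from adult hearts of C57BL/6J mice in a study of base editing for hypertrophic cardiomyopathy, with 9 libraries in 3 groups of 3. One group was wild type and received saline. The other two groups carried the R946X stop codon in both copies of Mybpc3, a thick-filament protein of the heart muscle, and received either saline or the treatment labelled high-dose exABE8e. Per the series' design text, adenine base editors were delivered in vivo with the viral vector AAV9 for expression in cardiomyocytes. The labels gave no dose, sex or age, and both saline groups lacked any labelled vector, so effects of the vector, the editor and the correction cannot be told apart. The labels did not say whether replicates were separate animals, so p-values measure the spread between these libraries.

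Class I molecules show peptides from inside the cell to CD8+ T cells and are made by nearly all nucleated cells, with low levels usual in cardiomyocytes. Class II molecules show peptides from engulfed material to CD4+ T cells and are made mainly by macrophages, dendritic cells and B cells, with Cd74 guarding the peptide groove until it is loaded. Nlrc5 and Ciita bind no DNA on their own: each joins a complex on a shared promoter module, the SXY module, whose X2 box resembles a cyclic AMP response element and whose Y box is an inverted CCAAT sequence, and interferon gamma induces both.

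The promoters of 4 members carry the letters of the X2 core and Y box with 20 or 21 bases between them. They are shown with H2-Eb1 because class I and class II genes are compared throughout. Only these letters were searched for, by exact match, so the lack of a pair does not show that the module is absent. RefSeq (GRCm38.p6) windows from 250 bases before to 50 bases after the start were used for 6 members (H2-K1, H2-D1, B2m, Tap1, H2-Aa and H2-Eb1). The stretches below read from 5′ to 3′ on the coding strand, and each ends 5 bases after an ATTGG. Capitals mark the TGACG (the core of the X2 box) and ATTGG (the Y box) of a pair as read on the printed strand, and in H2-Eb1 ATTGG alone. Copies on the other strand were counted in the shares of windows but are not marked, such as the one that overlaps the marked TGACG in H2-Aa.
H2-K1, chr17:34000354-34000463, minus strand: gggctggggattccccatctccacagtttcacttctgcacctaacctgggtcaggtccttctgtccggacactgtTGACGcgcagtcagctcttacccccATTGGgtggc
H2-D1, chr17:35262918-35263027, plus strand: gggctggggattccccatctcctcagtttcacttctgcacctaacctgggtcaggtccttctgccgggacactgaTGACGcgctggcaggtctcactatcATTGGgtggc
B2m, chr2:122147534-122147643, plus strand: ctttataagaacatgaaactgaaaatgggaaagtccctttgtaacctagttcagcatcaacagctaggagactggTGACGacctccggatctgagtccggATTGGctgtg
H2-Aa, chr17:34287862-34287971, minus strand: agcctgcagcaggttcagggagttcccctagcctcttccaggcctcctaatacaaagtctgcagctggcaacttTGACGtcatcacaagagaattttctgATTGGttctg
H2-Eb1, chr17:34305708-34305817, plus strand: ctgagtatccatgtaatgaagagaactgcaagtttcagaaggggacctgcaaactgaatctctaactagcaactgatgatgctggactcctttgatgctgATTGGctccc
In H2-K1, H2-D1 and B2m, 20 bases lay between TGACG and ATTGG, and in H2-Aa 21 bases did. This spacing of 20 or 21 bases was found in 54 of 32851 mouse promoter windows (0.164%), from 47 of 27025 genes, and these included 4 of the 6 members and H2-M3, a further class I gene. Only the spacings of these 4 members were searched for, so the share is a description and not a test. The letters alone were common: ATTGG was in 37.4% of windows and TGACG in 20.8%. H2-Eb1 held ATTGG with no TGACG, and Tap1 held both, each counted on either strand, but not as a pair at this spacing. The H2-K1 and H2-D1 stretches were identical at 99 of 110 bases (90.0%), while H2-K1 and B2m were identical at 46 (41.8%). A match describes letters and does not show that a factor was bound.

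The values are whole numbers that summed to between 999152 and 999382 in each library. No header names their unit, so they are given as deposited values, and exact levels are not compared between genes. Words such as abundant and hardly any are rough readings of the values. A list sum gives most weight to its genes with high values. The labels held for the mutated gene: Mybpc3 was 1510 to 2039 in the wild type, 133 to 186 in mutants given saline and 1024 to 1374 in those given exABE8e. One library in each group carried Xist, the RNA of the inactive X chromosome: wild-type replicate 1 (119), saline mutant replicate 3 (351) and treated replicate 1 (39), and the last of these also carried the Y-linked Ddx3y (38). Each comparison is therefore also given without these 3 libraries. Mitochondrial transcripts made up 17.0% to 24.1% of each library. In whole hearts, fewer cells of a type and less RNA per cell cannot be told apart.

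None of the 10 members differed between any of the groups beyond the spread between libraries. With limma and Benjamini-Hochberg adjustment over all genes tested, 0 of 10 passed an adjusted p of 0.05 in each of the 3 comparisons, and 0 of 10 had an unadjusted p under 0.05 in any of them (19.7%, 8.29% and 12.5% of all genes did). Over all genes tested, 7.70% were called between saline mutants and wild type, 0.0147% between treated and saline mutants, and 0.989% between treated mutants and wild type. The groups overlapped for all 10 members in all 3 comparisons, whereas 21.6%, 9.82% and 14.6% of all genes had groups that did not overlap. The values below show large differences between libraries of the same group, shared among the genes of a class.

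**Figure D1:**
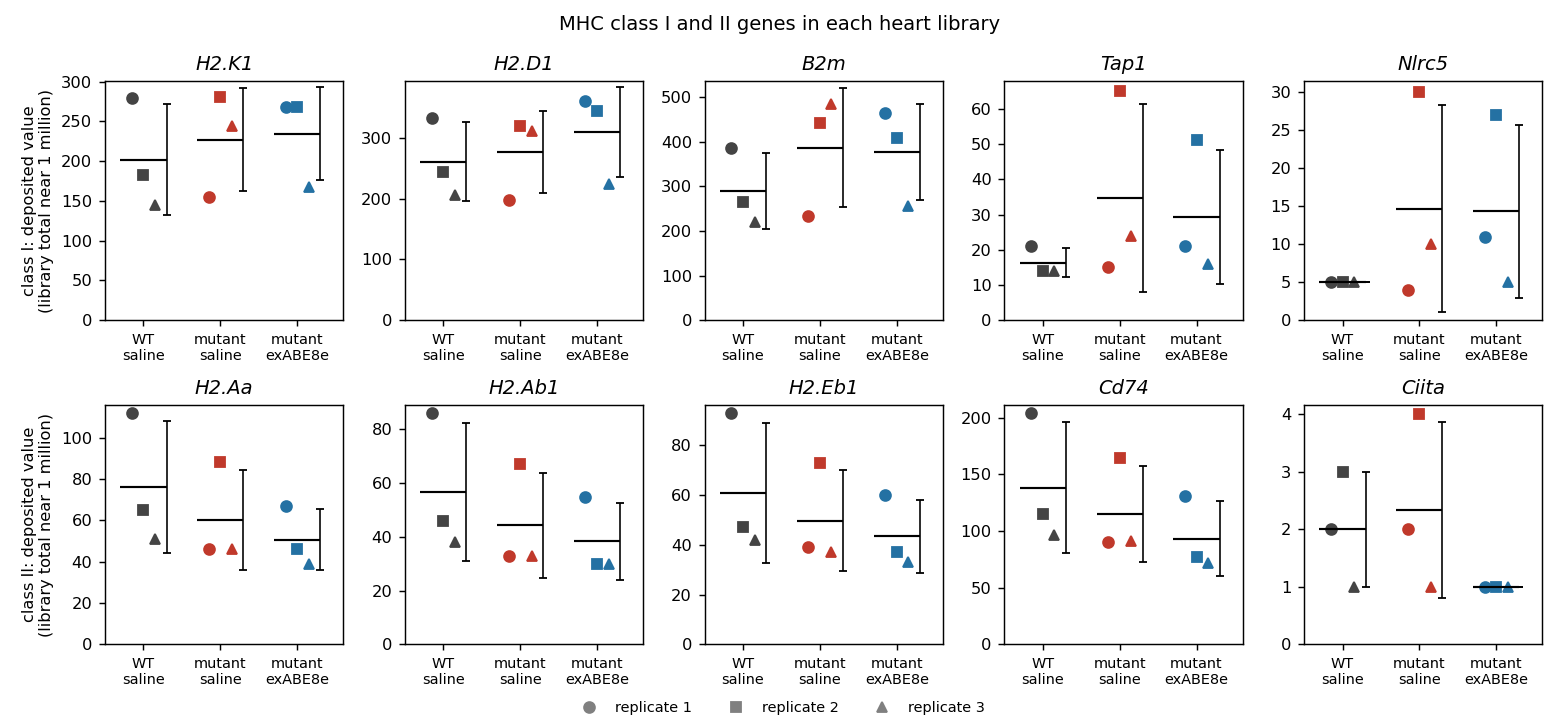
Deposited value of each member (y axis, from 0) in each library, by group (x axis). Points are libraries, with the replicate number given by the marker, lines are group means and bars are ± SD of 3 libraries. The groups overlap in every panel, Nlrc5 and Tap1 have 2 high libraries (saline mutant replicate 2 and treated replicate 2), and wild-type replicate 1 is the highest library for the 4 abundant class II genes.

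Among the class I genes, H2.K1 (chromosome 17, 33996017 to 34000347, minus strand, GENCODE M21 on GRCm38), a classical heavy chain, was 279, 182 and 145 in wild-type replicates 1 to 3. It was 155, 281 and 244 in mutants given saline and 268, 268 and 167 in those given exABE8e. The highest wild-type library and the highest mutant library were level, and each group had one or more low libraries. The group means were 202 ± 69.2, 227 ± 64.8 and 234 ± 58.3 (SD, n = 3). The log2 difference of value + 1, in which low values count for less, was 0.18 (SE 0.27) for saline mutants over wild type, 0.06 (SE 0.25) for treated over saline mutants and 0.23 (SE 0.27) for treated mutants over wild type.

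H2.D1 (chromosome 17, 35262730 to 35267499, plus strand), the second classical heavy chain of this strain, was 332, 243 and 206 in the wild type, 198, 319 and 311 in mutants given saline and 360, 344 and 224 in those given exABE8e. It followed H2.K1 from library to library (r = 0.977 over the 9 libraries, on the log2 scale). The log2 differences were 0.08 (SE 0.22), 0.17 (SE 0.23) and 0.25 (SE 0.23) in the same order of comparisons. The heavy chains are close relatives, and reads could be split between them or with other class I genes: 8.79% of the 50-base stretches of an H2.K1 transcript and 14.3% of those of an H2.D1 transcript also occur in transcripts of other genes. Their separate levels are uncertain to that extent. Among the other members, only Tap1 shared any such stretch (0.861%).

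B2m (chromosome 2, 122147686 to 122153083, plus strand), the light chain that every class I heavy chain needs to reach the cell surface, was 385, 265 and 221 in wild-type hearts. It was 234, 441 and 484 in mutants given saline and 465, 409 and 257 in those given exABE8e. Both mutant groups had 2 libraries above all wild-type libraries, and each had 1 library inside the wild-type range. The log2 difference from wild type was 0.38 (SE 0.29, 95% interval -0.27 to 1.04, limma adjusted p = 0.526) for saline mutants and 0.37 (SE 0.27, -0.25 to 0.99, adjusted p = 0.628) for treated mutants. Treated and saline mutants differed by -0.01 (SE 0.30), and this sign turned with median-of-ratios scaling (0.03).

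Tap1 (chromosome 17, 34187553 to 34197225, plus strand), which with Tap2 pumps peptides into the endoplasmic reticulum, varied more. It was 21, 14 and 14 in the wild type, 15, 65 and 24 in mutants given saline and 21, 51 and 16 in those given exABE8e. Replicate 2 of each mutant group stood apart, and the other mutant libraries lay within or just above the wild-type range. The log2 difference from wild type was 0.81 (SE 0.44, -0.20 to 1.81, limma adjusted p = 0.372) in saline mutants and 0.66 (SE 0.39, -0.26 to 1.57, adjusted p = 0.547) in treated mutants.

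Nlrc5 (chromosome 8, 94434356 to 94527272, plus strand), the class I transactivator, was 5 in each wild-type library, 4, 30 and 10 in mutants given saline and 11, 27 and 5 in those given exABE8e. The same 2 libraries were the highest, and 1 mutant library in each group lay at or below the wild-type value. The log2 difference from wild type was 0.99 (SE 0.54, -0.23 to 2.21, limma adjusted p = 0.360) in saline mutants and 1.07 (SE 0.48, -0.05 to 2.20, adjusted p = 0.417) in treated mutants. Without saline mutant replicate 1, the lowest library, Nlrc5 was called in saline mutants (log2 difference 1.62, limma adjusted p = 0.0307). Over all alternatives of that comparison the adjusted p ran from 0.0307 to 0.743, and no other alternative called any member. In the authors' deposited table of selected genes for saline mutants against wild type (689 genes), Tap1 and Nlrc5 were listed, and the selected table for treated mutants against wild type (317 genes) listed Nlrc5. The authors' deposited table gave Nlrc5 a log2 fold change of 1.48 with an unadjusted p of 0.0268 in the first of these, and Benjamini-Hochberg adjustment of the authors' deposited values gave 0.556.

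The class II chains were lower on average in mutants than in wild type, but within the spread. H2.Aa (chromosome 17, 34282744 to 34287823, minus strand), the I-A alpha chain, was 112, 65 and 51 in the wild type, 46, 88 and 46 in mutants given saline and 67, 46 and 39 in those given exABE8e. Wild-type replicate 1 held the highest value of the 9 libraries, saline mutant replicate 2 the next and treated replicate 1 the next after it. The group means were 76.0 ± 32.0, 60.0 ± 24.2 and 50.7 ± 14.6 (SD, n = 3). The log2 difference from wild type was -0.33 (SE 0.32, -1.06 to 0.40, limma adjusted p = 0.650) in saline mutants and -0.53 (SE 0.30, -1.24 to 0.18, adjusted p = 0.522) in treated mutants.

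H2.Ab1 (chromosome 17, 34257689 to 34269419, plus strand), the I-A beta chain, was 86, 46 and 38 in the wild type, 33, 67 and 33 in mutants given saline and 55, 30 and 30 in those given exABE8e. H2.Eb1 (chromosome 17, 34305867 to 34316674, plus strand), the I-E beta chain, was 93, 47 and 42, then 39, 73 and 37, then 60, 37 and 33 in the same libraries. The same 3 libraries were the highest for both genes, in the same order as for H2.Aa. C57BL/6 mice carry a defective gene for the partner alpha chain of I-E, so the H2.Eb1 transcript forms no surface I-E molecule in this strain, although its level followed the I-A chains. The log2 difference from wild type was -0.34 (SE 0.34) and -0.26 (SE 0.33) in saline mutants, and -0.52 (SE 0.34) and -0.43 (SE 0.33) in treated mutants, for H2.Ab1 and H2.Eb1.

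Cd74 (chromosome 18, 60803848 to 60812652, plus strand), the invariant chain, was 204, 115 and 96 in the wild type, 90, 164 and 91 in mutants given saline and 131, 77 and 72 in those given exABE8e. Its log2 difference from wild type was -0.25 (SE 0.31) in saline mutants and -0.54 (SE 0.32, -1.28 to 0.21, limma adjusted p = 0.541) in treated mutants. Ciita (chromosome 16, 10480059 to 10528418, plus strand), the class II transactivator, was near the lower limit of rounded values: 2, 3 and 1 in the wild type, 2, 4 and 1 in mutants given saline and 1 in each treated library. Its log2 difference between treated and saline mutants was -0.64 (SE 0.32, -1.37 to 0.10, limma adjusted p = 0.652). A step of 1 in the deposited value is a large fold at this level.

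**Figure D2:**
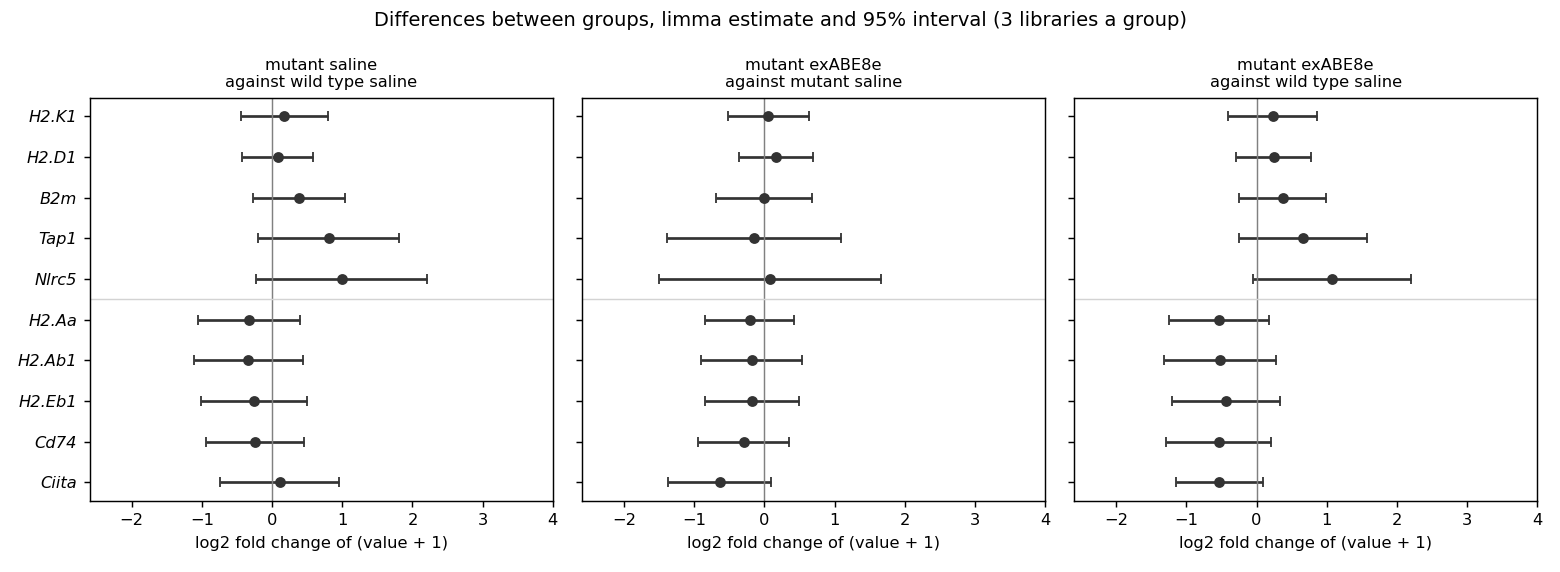
Log2 fold change of value + 1 (x axis) for each member (y axis, class I above the grey line) in the 3 comparisons, as limma estimates with 95% intervals from 3 libraries a group. Every interval includes 0, and the interval of Nlrc5 for treated mutants against wild type runs from -0.05 to 2.20.

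Side by side, the class I genes lay above wild type in both mutant groups and the abundant class II genes below. All 5 class I members had positive log2 differences from wild type in saline mutants (median 0.38) and in treated mutants (median 0.37). The median of all genes tested was 0.07 and 0.01. Of the class II members, 4 of 5 had negative differences in saline mutants (median -0.26; Ciita was 0.11), and 5 of 5 in treated mutants (median -0.53). These comparisons share the wild-type libraries, so their common direction is not independent. Between treated and saline mutants, which share no wild-type library, 3 of 5 class I members were positive (median 0.06) and 0 of 5 class II members were (median -0.21), with -0.02 as the median of all genes. The summed value of the 5 class I members was 591 to 1022 in the wild type, 606 to 1136 in mutants given saline and 669 to 1125 in those given exABE8e. The class II sum was 228 to 497, 208 to 396 and 175 to 314. By group mean the class I sum was lowest in wild type and highest in treated mutants, the class II sum was in the reverse order, and neighbouring groups in either order overlapped.

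The lower class II values in saline mutants rested on wild-type replicate 1: without that library the log2 difference of H2.Aa was -0.01 and that of Cd74 was 0.07. Without the 3 libraries with Xist, the log2 differences from wild type in saline mutants became positive for H2.Aa (0.14), H2.Ab1 (0.17), H2.Eb1 (0.26) and Cd74 (0.21). In treated mutants they stayed negative, at -0.43, -0.47, -0.34 and -0.49. Without wild-type replicate 1 alone the differences of treated mutants from wild type were smaller, at -0.22 for H2.Aa, -0.18 for H2.Ab1, -0.084 for H2.Eb1 and -0.22 for Cd74. Class I differences from wild type were positive in both mutant groups without the 3 libraries with Xist. Examples were 0.36 for H2.K1 and 0.41 for B2m with saline, and 0.38 and 0.42 with exABE8e. Wild-type replicate 1 and treated replicate 1, both with Xist, were the highest class II libraries of their groups, while in saline mutants the highest was replicate 2, which had no Xist. With these 3 libraries left out, 0 of 10 members were called in any comparison, and the numbers with an unadjusted p under 0.05 were 0, 2 and 4 in the 3 comparisons in the order above, beside 16.2%, 6.8% and 6.76% of all genes in the same fits.

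Over the 9 libraries the abundant class II genes followed each other closely, as did H2.K1, H2.D1 and B2m, and these 2 sets followed each other less closely. The 6 pairs among H2.Aa, H2.Ab1, H2.Eb1 and Cd74 had Pearson r of 0.987 to 0.992 on the log2 scale. H2.K1, H2.D1 and B2m had r of 0.945 to 0.977 with each other, and Tap1 and Nlrc5 had 0.959. Tap1 had 0.67 to 0.74 with the heavy chains and B2m, and Ciita had 0.54 to 0.61 with the other class II genes. H2.K1, H2.D1 and B2m had 0.37 to 0.59 with the 4 class II genes, and Tap1 and Nlrc5 had 0.09 to 0.27. After each group's mean was removed, the range for H2.K1, H2.D1 and B2m with the class II genes was 0.65 to 0.82, so libraries of 1 group that were high for class I tended to be high for class II. These values describe 9 libraries, and the genes of a pair share library and tissue composition.

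The ratio of a class I to a class II value in the same library separated mutant from wild-type hearts. This comparison was chosen after the values had been seen and is given as a description. H2.K1 divided by H2.Aa was 2.49, 2.80 and 2.84 in the wild type, 3.37, 3.19 and 5.30 in mutants given saline and 4.0, 5.83 and 4.28 in those given exABE8e. B2m divided by H2.Aa was 3.44, 4.08 and 4.33 in the wild type, 5.09, 5.01 and 10.5 in mutants given saline and 6.94, 8.89 and 6.59 in those given exABE8e. For both ratios every mutant library lay above every wild-type library, although none of the 3 genes alone separated the groups. Of the 16 ratios of H2.K1, H2.D1, B2m or Tap1 to H2.Aa, H2.Ab1, H2.Eb1 or Cd74, 11 were higher in all 6 mutant libraries than in all 3 wild-type libraries. They were all 4 of B2m, all 4 of Tap1 and 3 of H2.K1. The exceptions were the 4 ratios of H2.D1, and H2.K1 divided by H2.Eb1, where the highest wild-type library (3.87) lay just above the lowest mutant library (3.85).

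For treated mutants alone, 16 of 16 ratios lay above wild type without overlap. Between treated and saline mutants, 0 of 16 did in either direction. Among the other 13520 genes, 2.84% had ratios to all 4 class II genes that were higher in all 6 mutant libraries, as B2m and Tap1 did. For treated mutants against wild type this share was 6.93%, and all 4 class I genes had it, and for treated against saline mutants it was 0.865%. The 16 ratios share 4 numerators and 4 denominators that move together, so they amount to far fewer separate observations.

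**Figure D3:**
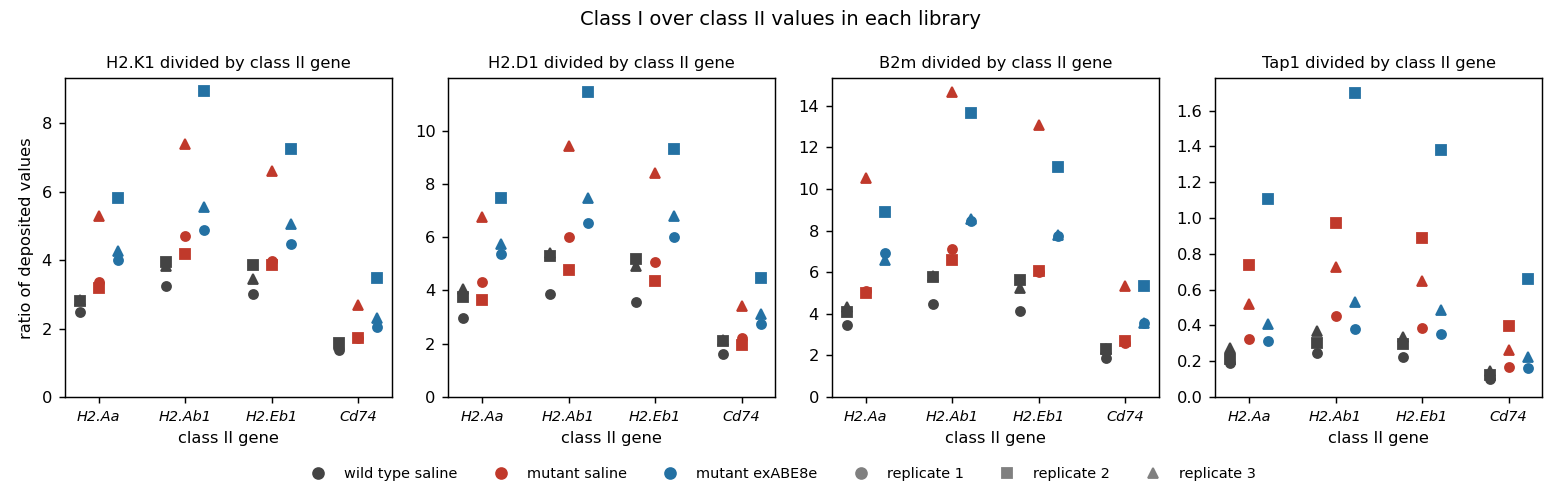
Ratio of the deposited value of a class I gene (panel) to that of a class II gene (x axis) in each library (y axis, from 0). Colours give the group and markers the replicate. Mutant libraries lie above the wild-type libraries for the ratios of B2m and Tap1, and saline mutant replicate 2 overlaps the wild-type libraries for H2.D1.

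The transactivators were set against the genes they are known to control, in 8 correlations over the 9 libraries with exact permutation tests. Nlrc5 and Tap1 had Pearson r = 0.959 (two-sided exact permutation p = 0.000926, Benjamini-Hochberg adjusted p = 0.00741) and Spearman rho = 0.829 (adjusted p = 0.0646). The 2 libraries farthest from the median of Nlrc5 were saline mutant replicate 2 and treated replicate 2. Without them r was 0.760 (exact permutation p = 0.0667, adjusted p = 0.178), so the pair no longer passed the threshold. A test on 7 libraries is also weaker, so it cannot tell whether the relation rested on those 2. Nlrc5 had r of 0.709 with H2.K1, 0.689 with H2.D1 and 0.710 with B2m (exact permutation, adjusted p = 0.0886 for each). Without the same 2 libraries these were 0.668, 0.762 and 0.859 (exact permutation, adjusted p from 0.152 to 0.229). Ciita had r of 0.541 to 0.612 with the class II genes (exact permutation, adjusted p from 0.126 to 0.132), and 0.480 to 0.536 without the 2 libraries farthest from its median (adjusted p from 0.229 to 0.238). Leaving out 1 library at a time, the number of the 8 past the threshold ran from 0 (without saline mutant or treated replicate 2) to 4 (without wild-type replicate 1). With values minus the group mean, the r of Nlrc5 with Tap1 was 0.956.

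Some interferon-stimulated genes, picked after their values were seen, were high in the 2 libraries in which Nlrc5 and Tap1 were high. Igtp, a GTPase of the interferon gamma response, was 164 in saline mutant replicate 2 and 100 in treated replicate 2, against 12 to 35 in the other 7 libraries. Iigp1, a related GTPase, was 464 and 321 in these libraries, against 49 to 101 elsewhere. Other genes of the interferon gamma list were not high in treated replicate 2. Irf1 was 43 in saline mutant replicate 2 but 21 in treated replicate 2, against 20 to 30 elsewhere. Gbp5 was 48 and 21 in the same order, against 11 to 24 elsewhere, and Cxcl9 was 10 and 7, against 3 to 11. Ifit3, a gene of the type I interferon response, was 48 in saline mutant replicate 2 but 499 in treated replicate 2, against 18 to 68 in the other libraries, of which saline mutant replicate 3 had the 68. The summed type I interferon response list was likewise lower in saline mutant replicate 2 (672) than in replicate 3 (757), and was 2340 in treated replicate 2. Both libraries had Tap1 above 50, but they differed in class II: H2.Aa was 88 in the saline mutant library, the second highest of all 9, and 46 in the treated library, near the lowest value of all 9 (39). In saline mutant replicate 1 and treated replicate 3, Igtp was 12 and 14 and both classes of MHC genes were low.

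The companion lists of pathway genes gave few calls. Of 21 further class I pathway genes, 1 rose and 0 fell in saline mutants against wild type, where 7.70% of all genes were called. The 1 that rose was Mr1, a class I-like molecule that presents vitamin B metabolites. Mr1 was 11, 13 and 10 in the wild type, 19, 24 and 27 in mutants given saline and 15, 15 and 18 in those given exABE8e. It rose by 0.97 in log2 units (SE 0.16, limma adjusted p = 0.00843), and the groups did not overlap. It was not called without saline mutant replicate 2 (adjusted p = 0.0506) or without the 3 libraries with Xist (0.0708). The treated libraries lay between the other groups, at -0.51 from saline mutants (adjusted p = 0.450) and 0.47 from wild type (adjusted p = 0.224). The median of the list was 0.16, beside 0.07 for all genes. In the other 2 comparisons 0 genes of this list were called by limma. At an unadjusted p under 0.05 were 1 (treated against saline mutants, 8.29% of all genes) and 3 (treated mutants against wild type, 12.5% of all genes). Next in size in saline mutants were the immunoproteasome subunits Psmb10 (0.52, limma adjusted p = 0.0992) and Psmb9 (0.43, adjusted p = 0.626).

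Of the class II pathway genes, 14 were tested and 0 passed in any comparison. In saline mutants against wild type, 6 of 14 had an unadjusted p under 0.05, where 19.7% of all genes did. It was 2 of 14 in each of the other comparisons, where 8.29% and 12.5% of all genes did. In saline mutants the list lay above wild type (median 0.25), while the abundant class II chains lay below. The differences that led were March1 (0.90, limma adjusted p = 0.0646), a ubiquitin ligase that removes class II from the surface, Ctss (0.82, adjusted p = 0.105), a protease that trims the invariant chain, and Cd86 (0.68, adjusted p = 0.138), a costimulatory ligand. Ctss was 35, 34 and 25 in the wild type, 36, 62 and 77 in mutants given saline and 40, 43 and 38 in those given exABE8e. H2.DMa, a class II-like peptide exchanger, was 10, 7 and 5, then 5, 8 and 5, then 6, 4 and 5. Its highest library in each group was that of the chains, although wild-type replicate 2 (7) lay above treated replicate 1 (6).

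Of 21 interferon gamma pathway genes tested in saline mutants against wild type, 1 rose and 1 fell, where 7.70% of all genes were called. Gbp6, a guanylate-binding protein, was 7, 5 and 7 in the wild type, 19, 48 and 24 in mutants given saline and 21, 127 and 12 in those given exABE8e. It rose by 2.0 (SE 0.30, limma adjusted p = 0.00538), with adjusted p of 0.00122 to 0.120 over the alternatives. The higher end came from fitting all 9 libraries together. Ifngr2, a subunit of the interferon gamma receptor, was 193, 209 and 192, then 138, 148 and 142, then 150, 146 and 171. It fell by 0.47 (SE 0.09, limma adjusted p = 0.0155), and leaving out wild-type replicate 2 or 3 or saline mutant replicate 1 or 2 ended the call (adjusted p from 0.0533 to 0.0678), as did a block for the replicate number (0.0604). In the other 2 comparisons 0 genes of this list were called by limma. At an unadjusted p under 0.05 were 1 and 4, beside 8.29% and 12.5% of all genes.

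Of 19 type I interferon response genes, 0 were called in any comparison. At an unadjusted p under 0.05 were 3, 0 and 2 of them, beside 19.7%, 8.29% and 12.5% of all genes. All 19 had positive differences in saline mutants against wild type (median 0.43), where 59.1% of all genes did. The sum of the list was 332 in saline mutant replicate 1, below every wild-type library (345 to 417), and 672 and 757 in replicates 2 and 3. The largest was Mx1 (1.41, limma adjusted p = 0.0646), at 1 in each wild-type library, 2, 4 and 9 in mutants given saline and 2, 4 and 2 in those given exABE8e. In treated mutants the list's sum ran from 384 to 2340, the upper end being replicate 2. Ifit1 was 18, 279 and 9 in treated mutants and 10 to 12 in wild-type hearts, so the mean of that group is set by 1 library.

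**Figure D4:**
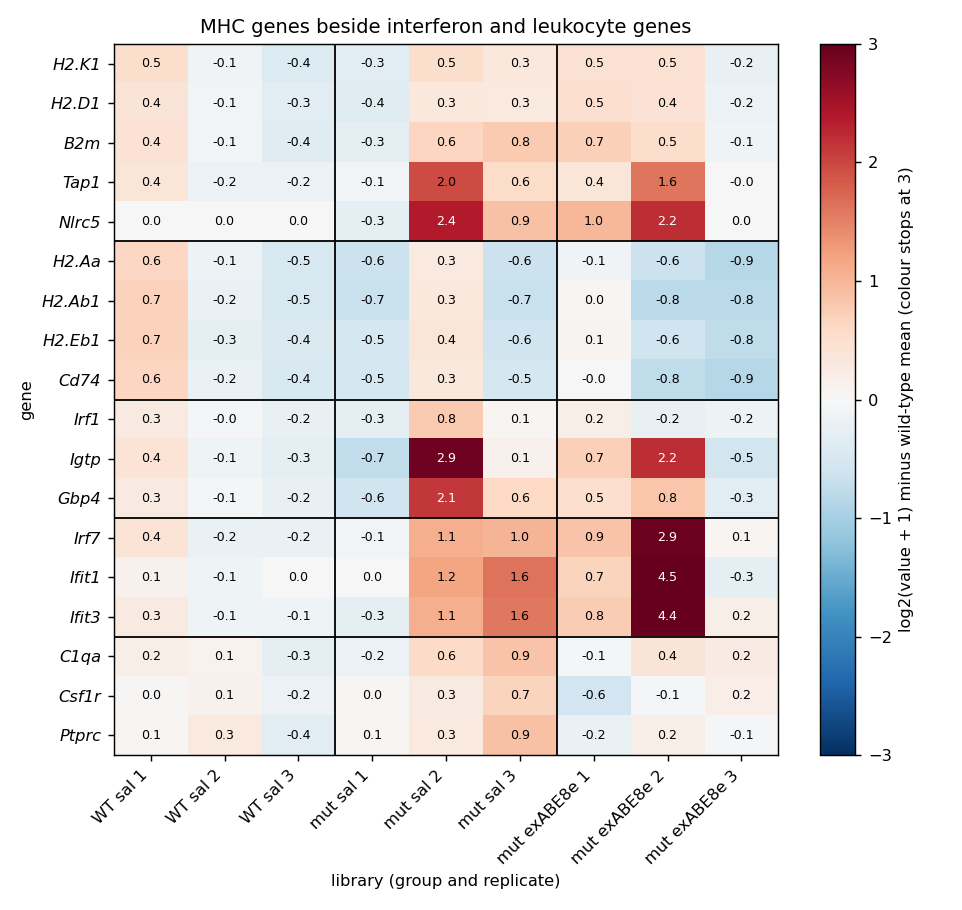
Log2(value + 1) minus the wild-type mean (colour and number) for 9 members and for interferon and leukocyte genes (y axis) in each library (x axis), with Ciita left out because its values are 1 to 4. Blocks from the top are class I, class II, interferon gamma pathway, type I interferon response and leukocyte genes, of which the last 3 blocks were picked after their values were seen. Saline mutant replicate 2 and treated replicate 2 are the high libraries for Nlrc5 (2.37 and 2.22), but only the first is above the wild-type mean for class II.

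Cell markers showed heart muscle with macrophage RNA and hardly any lymphocyte RNA. All 8 cardiomyocyte markers were above 0 in every library, with a sum of 29910 to 35296. All 12 macrophage markers were above 0 in every library, and their sum was 473 to 666 in the wild type, 525 to 1026 in mutants given saline and 532 to 665 in those given exABE8e. The sum was highest in saline mutant replicate 3 (1026), where H2.Aa was 46, and next in saline mutant replicate 2 (794), where H2.Aa was 88. Wild-type replicate 1, with the highest class II values, had 627. Of the 6 B cell markers 4 had values, and their sum was 0 to 8. The 6 of 11 T and NK cell markers with values summed to 1 to 4. Cd79a was 0 or 1 and Cd8a was 0 or 1 in every library. Of the dendritic cell markers, Flt3, Batf3 and Itgax were 0 or 1, Clec9a was 4 to 7 and Zbtb46, which endothelium also expresses, was 19 to 29. Xcr1 was 1, 1 and 1 in the wild type, 1, 1 and 2 in mutants given saline and 0 in each treated library. These values lie at the lower limit of rounded values. The sum of 5 pan-leukocyte genes was 51 to 79 in the wild type, 63 to 121 in mutants given saline and 70 to 79 in those given exABE8e. The endothelial sum was 923 to 1406. The erythroid sum was 104 to 313 in the wild type, 69 to 85 in mutants given saline and 140 to 158 in those given exABE8e. In saline mutants against wild type all 5 erythroid genes lay lower without overlap, where 21.6% of all genes did not overlap. Of the 5, 2 fell, where 7.70% of all genes were called. They were Alas2 (-1.35, limma adjusted p = 0.0361) and Hba.a2 (-1.15, adjusted p = 0.0414), each called in 7 of 14 alternatives. In treated against saline mutants all 5 lay higher without overlap (9.82% of all genes did not overlap), and 0 were called. Of the 8 cardiomyocyte markers, 3 lay higher and 3 lower without overlap in saline mutants against wild type, and 0 were called. The part of these cell types in the MHC values was not tested.

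The genes most like the class I members came from the same family. Of 8777 other genes that averaged 10 or more, those with the highest r over the 9 libraries to the mean of H2.K1, H2.D1, B2m and Tap1 were H2.Q7 (0.967), H2.T23 (0.962), H2.Q6 (0.952), H2.Q4 (0.935) and Irf9 (0.924). The first 4 are non-classical class I genes, with which reads of the heavy chains could be shared, and Irf9 is a subunit of the type I interferon transcription complex. H2.T23 was 46, 36 and 31 in the wild type, 30, 59 and 47 in mutants given saline and 51, 72 and 35 in those given exABE8e, and its 3 lowest libraries were those of H2.K1. For the mean of H2.Aa, H2.Ab1, H2.Eb1 and Cd74 the leading genes were Psmb2 (0.948), a proteasome subunit, Mrps16 (0.922), Mrps12 (0.898), Tstd3 (0.891) and Mrpl51 (0.889). Their ranges were narrow: Psmb2 was 63 to 71 and Mrps16 was 32 to 39, whereas Cd74 was 72 to 204.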

How the data were processed

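The submitters' processing notes name HISAT2, HTSeq, DESeq2 and mm10, without versions. The authors deposited 1 value per gene and library as whole numbers of unstated unit, treated here as a score. The library totals fit a rounded per-million unit, so depth is unknown. The deposited log2 fold changes come from the authors' comparisons, and the column named as adjusted p-value in the authors' deposited tables behaves as an unadjusted p. Groups were compared pairwise with limma 3.58.1 (R 4.3.3) on log2(value + 1) for genes with a mean of at least 1 over the 6 libraries. Residual variances were set to no less than the rounding variance (1/12), with a trended prior whose degrees of freedom came from genes with a mean of at least 30. Calls used a Benjamini-Hochberg adjusted p under 0.05. The code was tested on simulated data. Correlations used exact permutations (Python 3.11.15, SciPy 1.17.1).

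Named were all members, the called genes and the 3 largest differences of 4 companion lists (those not printed were given by counts or ranges), the 5 genes most like each class, and check genes. The members and lists were chosen with earlier results of these data known. Positions are from GENCODE M21 and promoters from RefSeq. Alternatives were another pseudocount, filters, scaling, variance steps, joint and blocked fits, and omitted libraries. The 3 libraries per group limit the precision.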

Additional observations from a re-analysis of the deposited data

How the results depend on the processing

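The calls on the members held under nearly every alternative, while the signs of small differences often turned. Of 265 member log2 differences outside the omission of single libraries, 259 kept their sign and call. The 6 that turned were, in saline mutants against wild type without the 3 libraries with Xist, H2.Aa (0.14), H2.Ab1 (0.17), H2.Eb1 (0.26) and Cd74 (0.21), and, for treated against saline mutants, B2m with median-of-ratios scaling (0.031) and without the libraries with Xist (0.013). The causes were not tested.

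With 1 library left out, 24 of 180 member differences turned. In saline mutants against wild type the ranges were -0.035 to 0.43 for H2.K1, -0.074 to 0.30 for H2.D1, -0.67 to 0.0008 for H2.Ab1, -0.57 to 0.0875 for H2.Eb1, -0.53 to 0.070 for Cd74 and -0.24 to 0.43 for Ciita. For treated against saline mutants they were -0.19 to 0.28 for H2.K1, -0.057 to 0.38 for H2.D1, -0.34 to 0.24 for B2m, -0.62 to 0.43 for Tap1, -0.55 to 0.77 for Nlrc5, -0.42 to 0.10 for H2.Aa, -0.47 to 0.15 for H2.Ab1 and -0.43 to 0.14 for H2.Eb1. Members called in saline mutants against wild type ran from 0 to 1, the 1 being Nlrc5 without saline mutant replicate 1. Correlations of the transactivators past the threshold ran from 0 (without saline mutant or treated replicate 2, each leaving Nlrc5 with Tap1 at an adjusted p of 0.0667) to 4 (without wild-type replicate 1), beside 1 with all libraries.

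With the replicate number as a replicate block, 0 of 10 members were called in each comparison, and 2, 0 and 6 had an unadjusted p under 0.05, beside 16.4%, 9.74% and 14.2% of all genes. Same-numbered libraries had correlations of their deviations from -0.37 to 0.566, not all above 0.1, so the numbers were not taken as pairs. The block ended the call of Ifngr2 (adjusted p = 0.0604). Genes called over the whole table moved from 1050 to between 506 and 1281 in saline mutants against wild type, from 2 to between 2 and 32 in treated against saline mutants, and from 134 to between 1 and 248 in treated mutants against wild type. The alternatives for Mr1, Gbp6 and Ifngr2 were added after the data had been seen. Depth is unknown, and rounding to whole numbers limits Ciita and Nlrc5 most.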
